A study of Homo sapiens with 6 samples.

Results

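The 10 chemokines examined here, CCL2, CCL5, CCL7, CCL28, CXCL9, CXCL10, CXCL11, CXCL16, CX3CL1 and CXCL14, attract monocytes, T cells or both. They were selected by gene symbol, and all 10 were found among the 47432 genes of the expression tables. The tables come from RNA-seq of the human melanoma line LOX-IMVI, which was grown in RPMI-1640 with 10% FCS. All cells carried a lentiviral pLKO.1 short hairpin RNA construct, either the control construct (shCtrl, 3 libraries) or a construct directed at NFKBIZ (shNFKBIZ, 3 libraries). The genotype label of the second group is NFKBIZ knock down. The methods of the study list a single NFKBIZ hairpin, so an effect of the knockdown and an effect particular to that hairpin cannot be told apart. The comparison asks which of these chemokines have a different transcript level when IκBζ, the product of NFKBIZ, is depleted.

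Chemokines are small secreted proteins that form gradients and guide leukocytes carrying the matching G protein-coupled receptor. CCL2 and CCL7 recruit monocytes through CCR2, CCL5 recruits T cells and monocytes through CCR1 among other receptors, and CXCL9, CXCL10 and CXCL11 share the receptor CXCR3 on activated T cells and NK cells. The CXCR3 ligands are classically induced by interferons through STAT and IRF factors, and together with CCL2 and CCL5 they can also be induced through NF-κB. CXCL16 and CX3CL1 are made as membrane-bound proteins with a chemokine domain on a mucin stalk, and are released by metalloproteases. CCL28 is a mucosal chemokine of epithelial cells, whose receptors are CCR10 and CCR3. IκBζ is an atypical nuclear member of the IκB family that acts as a co-regulator of NF-κB target genes.

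Depth was similar in the 2 groups, with 22264473 to 24624839 total exon reads per library. NFKBIZ itself (ENSG00000144802, chromosome 3, 101827991 to 101861022, plus strand of hg38) was lower in every library labelled as knockdown, where 474, 477 and 468 exon reads were counted against 1519, 1629 and 1674 in the controls. Its log2 fold change was -1.78 (SE 0.0581 with an adjusted P of 7.2e-17 in the edgeR quasi-likelihood test). The melanocyte markers MLANA, SOX10 and S100B had 0 reads in every library, and TYR, TYRP1 and DCT had at most 4, while PMEL had up to 11 and MITF was at 3.21 ± 0.373 TPM in shCtrl and 2.00 ± 0.241 TPM in shNFKBIZ cells. VIM, AXL and TNC of the dedifferentiated melanoma list were abundant, and NGFR of that list had at most 3 reads. The summed TPM of that list was 5469 to 5524 in shCtrl and 4748 to 4845 in shNFKBIZ libraries, and that of the melanocyte list 3.19 to 4.23 and 1.79 to 2.62. Of 11 immune cell markers, 5 were at 0, among them CD3E, CD2, MS4A1 and NKG7, and PTPRC had at most 1 read in a library. CSF1R had 5, 5 and 2 reads in shCtrl and 11, 4 and 10 in shNFKBIZ libraries, and CD163, LYZ and CD14 had at most 8. The summed TPM of the list was 96.8 to 100.5 in shCtrl and 198.7 to 200.05 in shNFKBIZ libraries. That sum came almost wholly from the lysosomal protein CD68 (98.5 ± 1.68 and 198 ± 0.695 TPM, SD, n = 3). The 4 endothelial markers summed to 0.696 to 0.875 TPM in shCtrl and 0.594 to 0.954 TPM in shNFKBIZ libraries. The 4 epithelial markers, KRT14 foremost, summed to 0.593 to 1.05 TPM in shCtrl and 1.58 to 1.85 TPM in shNFKBIZ libraries, and their part in any result was not tested.

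The regulatory sequence just upstream of the transcription start is shown for the 3 CXCR3 ligands, which lie side by side on chromosome 4, and for CCL28, the most abundant of the 10 chemokines. The sequences are the 250 bases before the start in the RefSeq promoter table (GRCh38.p14), 5′ to 3′ on the strand of the gene, which is the minus strand for all 4. Capitals mark matches to the NF-κB consensus (the κB motif), the ISRE core GAAANNGAAA bound by IRF factors, or the GAS core TTCNNNGAA bound by STAT dimers, each searched on both strands, and matches of different motifs did not overlap in the windows shown. The windows are chr4:76007510-76007759 for CXCL9, chr4:76023498-76023747 for CXCL10, chr4:76036071-76036320 for CXCL11 and chr5:43412392-43412641 for CCL28. That of CXCL11 lies inside the gene as counted here (76033682 to 76041415), so its RefSeq start is not the outermost annotated one. CCL28 has a second RefSeq start, whose window (chr5:43397138-43397387) is not shown.
CXCL9 upstream: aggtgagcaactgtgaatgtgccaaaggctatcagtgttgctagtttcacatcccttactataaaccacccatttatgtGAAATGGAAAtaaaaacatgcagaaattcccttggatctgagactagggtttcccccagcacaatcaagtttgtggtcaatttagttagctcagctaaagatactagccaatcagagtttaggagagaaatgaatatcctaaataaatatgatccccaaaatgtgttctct
CXCL10 upstream: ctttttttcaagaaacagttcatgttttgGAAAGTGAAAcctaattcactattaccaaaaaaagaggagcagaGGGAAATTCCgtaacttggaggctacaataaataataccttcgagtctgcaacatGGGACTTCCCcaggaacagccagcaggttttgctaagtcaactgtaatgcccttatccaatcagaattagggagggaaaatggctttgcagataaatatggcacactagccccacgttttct
CXCL11 upstream: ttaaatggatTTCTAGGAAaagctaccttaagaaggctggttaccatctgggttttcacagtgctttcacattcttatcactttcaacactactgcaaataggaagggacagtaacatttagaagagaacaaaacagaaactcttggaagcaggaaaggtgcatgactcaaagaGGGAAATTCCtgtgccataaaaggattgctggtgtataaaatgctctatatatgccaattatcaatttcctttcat
CCL28 upstream: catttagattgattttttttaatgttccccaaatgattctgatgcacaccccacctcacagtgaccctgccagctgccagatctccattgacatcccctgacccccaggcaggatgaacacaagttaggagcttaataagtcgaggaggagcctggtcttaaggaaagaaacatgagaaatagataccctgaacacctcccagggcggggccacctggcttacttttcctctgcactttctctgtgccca
Of the 10 chemokines, 6 had an entry in that table, CCL28 with 2 start sites, which gave 7 promoters of 300 bases (250 before and 50 after the start). CXCL9 held an ISRE core at base -171 from the start and no κB match. CXCL10 held κB matches at -177 and -122 and an ISRE core at -221. CXCL11 held a κB match at -76 and GAS cores at -240 and 18, the second of them downstream of the start. CCL7 held a GAS core at -250, and the windows of CCL28 and CXCL14 held none of the 3 motifs. Among all 35116 promoters of the table, 11.27% held a κB match, 3.57% an ISRE core and 7.66% a GAS core. These matches describe the letters of the sequence and do not show that a factor binds there. CCL2, CCL5, CXCL16 and CX3CL1 were not in the table.

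The study also measured CCL5, CXCL9 and CXCL10 by quantitative PCR. Its human primers are shown, 5′ to 3′ in lower case, because they fix which stretch of each transcript a reader of both assays would be comparing.
CCL5 forward: gatcaagacagcacgtggac
CCL5 reverse: tcgggtgacaaagacgactg
CXCL9 forward: attggtgcccagttagcctc
CXCL9 reverse: ttctggccacagacaacctc
CXCL10 forward: tgcaagccaattttgtccacg
CXCL10 reverse: ctgcatcgattttgctcccc
Matched to GENCODE release 44, the CCL5 pair spans 247 bases of the transcript CCL5-201, which is 1 of 3 annotated transcripts and the only one that holds both primers. Its forward primer lies in untranslated sequence of exon 1 (chr17:35880332-35880351), and its reverse primer crosses the junction of exons 2 and 3 in coding sequence (chr17:35878528-35878534 and chr17:35872452-35872464). Both CXCL9 primers lie in the untranslated part of exon 4 of 4 (chr4:76001942-76001961 and chr4:76001871-76001890) and bound an amplicon of 91 bases. The CXCL10 pair runs from coding sequence in exon 2 (chr4:76022703-76022723) to untranslated sequence in exon 4 (chr4:76021903-76021922), an amplicon of 169 bases. The RNA-seq values below count reads over all annotated exons of a gene and not over these amplicons alone. The study proposes that IκBζ represses CCL5, CXCL9 and CXCL10 in melanoma cells. Its evidence includes quantitative PCR in several melanoma lines and in mouse tumors, inhibitor treatments, and chromatin immunoprecipitation in B16-F10 and LOX-IMVI cells. Those measurements were not examined here. In the values below CCL5 was lower in shNFKBIZ cells (61 and 6 summed reads), the opposite direction, and the reason was not tested. For CXCL9 and CXCL10 the reads were too few to judge a direction.

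Transcripts of most of these chemokines were scarce in both groups. Of the 10 genes, 8 had at most 4 exon reads in every library, 1 of them, CCL7, had 0 reads throughout, and only CCL28 had more than 100 reads in every library. Levels between genes are compared per length, as TPM, in which total exon reads are divided by exon length and scaled to the same sum in every library. In shCtrl cells the order was CCL28 (6.41 ± 0.893 TPM, SD, n = 3), CCL5 (2.22 ± 0.812), CXCL10 (0.373 ± 0.0948), CXCL11 (0.209 ± 0.128), CXCL14 (0.139 ± 0.0526), CCL2 (0.0865 ± 0.0898), CXCL16 (0.0585 ± 0.00328) and CX3CL1 (0.00970), with CXCL9 and CCL7 at 0. CCL28 stood above CCL5 in every shCtrl library, and CCL5 above CXCL10, whose highest library reached 0.443 TPM against 1.29 TPM in the lowest CCL5 library. From CXCL10 down to CXCL16, each gene overlapped with the next in this order, and the genes were separated by a few reads. CXCL16, with 1 read in each shCtrl library, lay above CX3CL1, with 1 read in all. In shNFKBIZ cells CCL28 (9.50 ± 0.909 TPM) was again highest, and the next gene, CCL5 (0.229 ± 0.117 TPM), overlapped with CXCL16 (0.103 ± 0.130 TPM) and CXCL10 (0.0970 ± 0.0841 TPM).

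**Figure D1:**
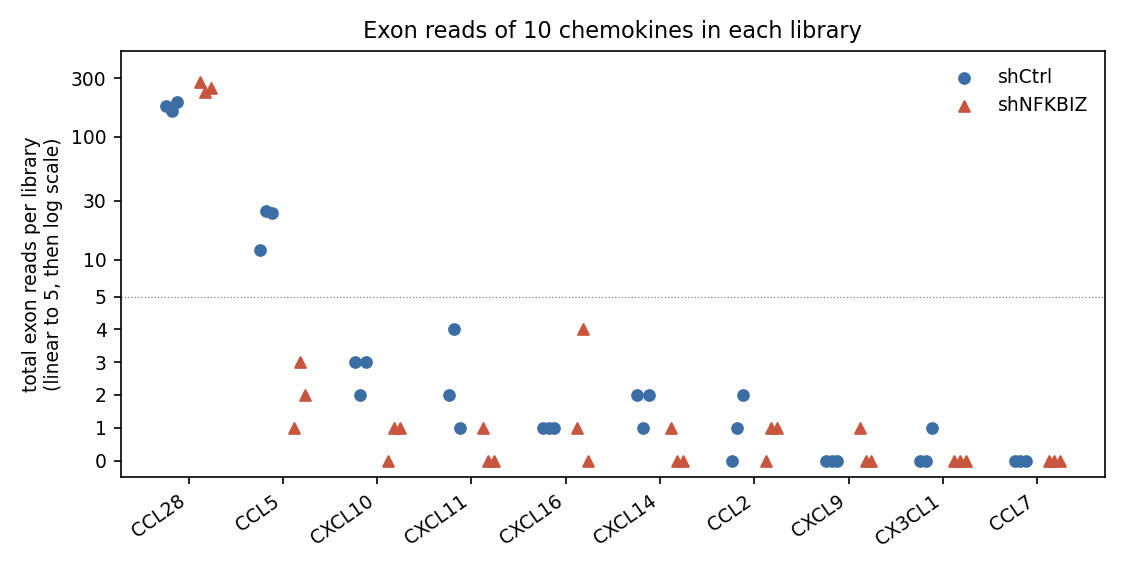
Total exon reads of the 10 chemokines in each library, on an axis that is linear up to 5 reads (dotted line) and logarithmic above. Blue circles are the 3 shCtrl and red triangles the 3 shNFKBIZ libraries. CCL28 lies at 161 to 279 reads, CCL5 falls from 12 to 25 reads in shCtrl to 1 to 3 in shNFKBIZ, and the other 8 genes stay at or under 4 reads.

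CCL28 (ENSG00000151882, chromosome 5, 43376645 to 43412391, minus strand, hg38) was the chemokine with the most reads. It had 179, 161 and 191 exon reads in the shCtrl libraries and 279, 229 and 247 in the shNFKBIZ libraries. In TPM these were 6.36, 5.54 and 7.32 in shCtrl, and 10.5, 8.80 and 9.18 in shNFKBIZ. All 3 shNFKBIZ libraries lay above all 3 shCtrl libraries, which held for 68.7% of all genes tested in one direction or the other. The log2 fold change was 0.49 (SE 0.105 with an adjusted P of 0.000314 in the edgeR quasi-likelihood test), a 1.41-fold higher level, which is under the 2-fold limit set for a call. Of all 13843 genes tested, 32.5% were likewise higher at an adjusted P of at most 0.05 with no limit on the fold. The summed reads of 531 and 755 gave a ratio of 1.499 after scaling by total exon reads (exact 95% interval 1.34 to 1.68). That ratio is scaled by library size alone, and the fitted fold change by TMM factors as well. Every exon read of CCL28 was unique, and no other annotated gene overlaps it.

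Reads in introns, which come mostly from unspliced RNA, gave a further count for CCL28. It had 19, 40 and 38 intron reads in shCtrl and 42, 36 and 45 in shNFKBIZ libraries. The groups overlapped, and the log2 fold change of intron reads was 0.25 (SE 0.222 with an adjusted P of 0.389 in the edgeR quasi-likelihood test on 12119 genes), where 38.8% of all genes tested had an adjusted P of at most 0.05. The difference between the exon and intron changes was not tested. Intron reads were 15.4% of the reads assigned to CCL28 in shCtrl and 14.0% in shNFKBIZ, and reads across an exon junction were 5.08% and 5.30% of its exon reads. Among 1564 protein-coding genes with a mean of 100 to 300 exon reads, the median junction share was 19.9%, and 14.3% of those genes had a lower share than CCL28.

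CCL5 (ENSG00000271503, chromosome 17, 35871491 to 35880793, minus strand, hg38), also known as RANTES, fell in shNFKBIZ cells. Its exon reads numbered 12, 25 and 24 in the shCtrl libraries and 1, 3 and 2 in the shNFKBIZ libraries, so the groups did not overlap, as held for 68.7% of all genes tested. In TPM these were 1.29, 2.59 and 2.78 in shCtrl, and 0.114, 0.348 and 0.224 in shNFKBIZ, with the first shCtrl library lowest in its group. The log2 fold change was -3.28 (SE 0.479 with an adjusted P of 3.34e-06 in the edgeR quasi-likelihood test), a level 9.72-fold lower. CCL5 passed the filter on low counts only through its shCtrl libraries, and 5.12% of all genes tested were past the threshold and lower, as CCL5 was. The 61 and 6 summed reads gave a ratio of 0.104 after scaling by total exon reads (exact 95% interval 0.0366 to 0.239). Intron reads of CCL5 numbered 3, 5 and 2 in shCtrl and 1, 0 and 0 in shNFKBIZ libraries, too few to be tested. Of its 61 shCtrl exon reads 60 were unique. A long non-coding RNA on the opposite strand (ENSG00000270240) overlaps CCL5 and had 4 and 1 exon reads in the 2 groups, and strand was not used in the counting.

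**Figure D2:**
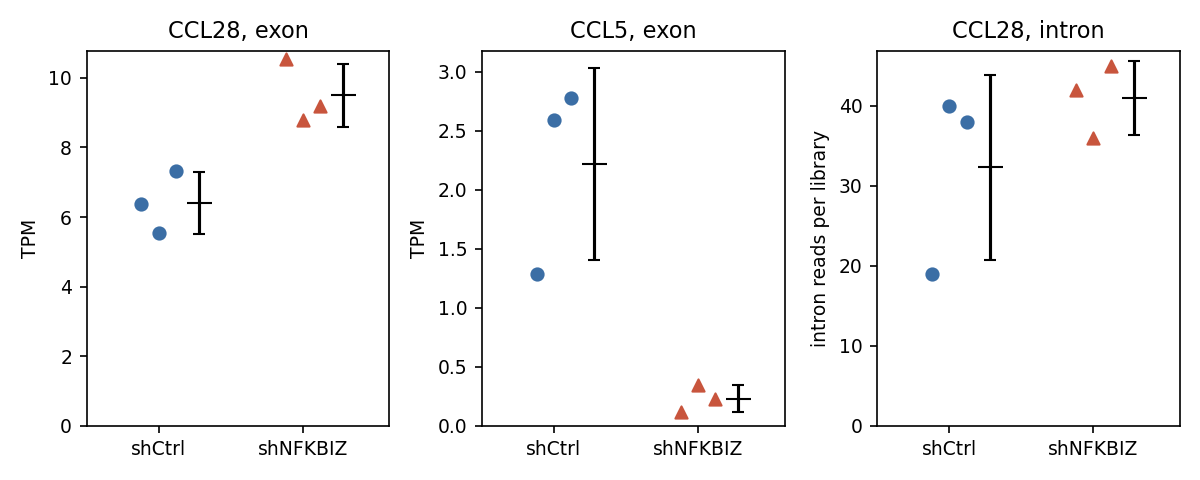
Exon TPM of CCL28 (left) and CCL5 (middle) and intron reads of CCL28 (right) in each library, with shCtrl as blue circles and shNFKBIZ as red triangles, and the mean with SD (n = 3) as a black bar. All axes start at 0. The groups are apart in both exon panels, in opposite directions, and overlap in the intron panel.

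CXCL10 (ENSG00000169245, chromosome 4, 76021118 to 76023497), CXCL11 (ENSG00000169248, chromosome 4, 76033682 to 76041415) and CXCL9 (ENSG00000138755, chromosome 4, 76001275 to 76007509), all on the minus strand, are the ligands of CXCR3. CXCL10 reads numbered 3, 2 and 3 in the shCtrl libraries, and 0, 1 and 1 in the shNFKBIZ libraries. CXCL11 had 2, 4 and 1 reads in shCtrl and 1, 0 and 0 in shNFKBIZ libraries, and CXCL9 had a single read, in the first shNFKBIZ library. None of the 3 passed the filter on low counts, so none has a P value. The ratio of summed reads scaled by library totals, shNFKBIZ over shCtrl, was 0.263 for CXCL10 (8 and 2 reads, exact 95% interval 0.0273 to 1.32) and 0.151 for CXCL11 (7 and 1 reads, 0.00334 to 1.17). Both intervals include 1, so that a difference was not detectable at this depth. For CXCL9 both groups were under the floor of 3 reads summed over a group, which corresponds to 0.0590 TPM in shCtrl and 0.0619 TPM in shNFKBIZ, and no ratio is given. Both CXCL10 reads in shNFKBIZ cells crossed an exon junction, and none of the 8 in shCtrl cells did. CXCL10 and CXCL11 lie within ART3 on the opposite strand, which had 0 exon reads in shCtrl and 1 in shNFKBIZ cells.

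The monocyte chemokines CCL2 (ENSG00000108691, chromosome 17, 34255274 to 34257208, plus strand) and CCL7 (ENSG00000108688, chromosome 17, 34270221 to 34272242, plus strand) were all but absent from these libraries. CCL2 had 0, 1 and 2 reads in shCtrl and 0, 1 and 1 in shNFKBIZ libraries. CCL7 had 0 reads in all 6, which allows a level of up to 0.189 TPM in shCtrl and 0.198 TPM in shNFKBIZ by counting error alone. For both genes both groups were at or under the floor, and no ratio is given.

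The membrane-bound chemokines CXCL16 (ENSG00000161921, chromosome 17, 4733533 to 4739928, minus strand) and CX3CL1, or fractalkine (ENSG00000006210, chromosome 16, 57372477 to 57385044, plus strand), were also scarce. CXCL16 had 1 read in each shCtrl library and 1, 4 and 0 in the shNFKBIZ libraries, a ratio of 1.76 (3 and 5 reads, exact 95% interval 0.342 to 11.3) that rests on the second shNFKBIZ library. It overlaps MED11 on the opposite strand, which had 376 and 476 exon reads in the 2 groups, and strand was not used in the counting. CX3CL1 had 1 read in the third shCtrl library and none elsewhere. CXCL14 (ENSG00000145824, chromosome 5, 135570679 to 135579279, minus strand), a chemokine of resting epithelium that attracts monocytes, had 2, 1 and 2 reads in shCtrl and 1, 0 and 0 in shNFKBIZ libraries. Its ratio was 0.211 (5 and 1 reads, exact 95% interval 0.00446 to 1.88). The intervals of CXCL14 and CXCL16 include 1.

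Across the 10 chemokines, 2 could be tested and 8 could not. Summed reads gave a ratio with an interval for 6 genes, and the interval excluded 1 for CCL5 and for CCL28. The share of all genes whose interval would exclude 1 was not computed, so this count does not set the 2 genes apart. With no fold limit, 9039 of all 13843 genes tested had an adjusted P of at most 0.05 in the edgeR quasi-likelihood test. The other 4 genes were at or under 3 summed reads in both groups. These intervals cover counting error only. No intron read fell in any of the 10 genes other than CCL28 and CCL5.

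**Figure D3:**
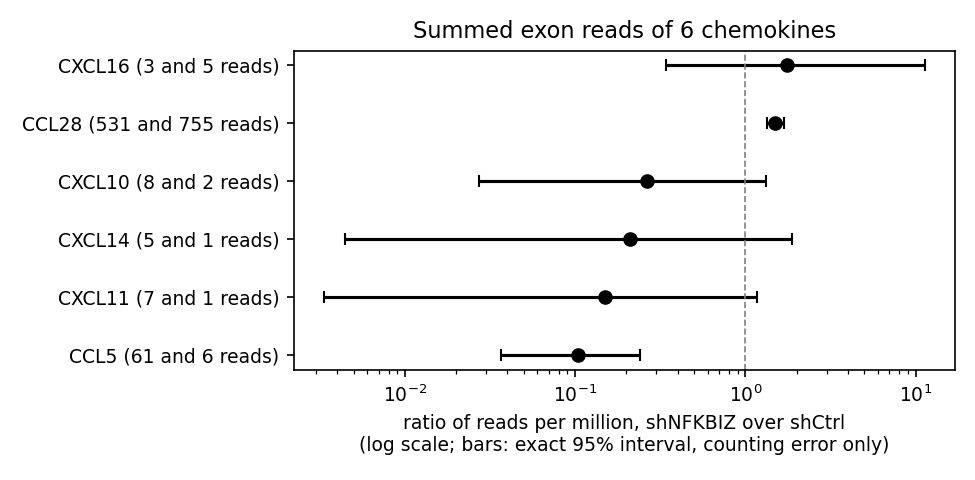
Ratio of summed exon reads scaled by library totals, shNFKBIZ over shCtrl, for the 6 chemokines with more than 3 summed reads in a group, on a logarithmic axis with exact 95% intervals for counting error. The dashed line marks a ratio of 1, and the reads of shCtrl and shNFKBIZ stand beside each name. The intervals of CCL5 (0.0366 to 0.239) and CCL28 (1.34 to 1.68) lie apart from 1 and those of the other 4 include it.

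Receptors of these chemokines were examined in the same cells. Of 13 receptor genes, among them the scavenging receptors ACKR1 to ACKR4, 12 had at most 4 reads in every library and 8 had 0 throughout, among them CCR1, CCR3, CXCR4, CXCR6, CX3CR1, ACKR1 and ACKR3. The remaining receptor was CCR10, through which CCL28 acts. Its exon reads numbered 49, 57 and 44 with the control hairpin against 18, 24 and 28 with the NFKBIZ hairpin. The groups did not overlap, as held for 68.7% of all genes tested, and 5.12% of those were past the threshold and lower, as CCR10 was. The CCR10 level fell from 3.10 ± 0.250 to 1.52 ± 0.318 TPM (SD, n = 3), a log2 fold change of -1.11 (SE 0.220 with an adjusted P of 0.000144 in the edgeR quasi-likelihood test). CCR10 overlaps CNTNAP1 on the opposite strand, which had 4881 exon reads in shCtrl and 3745 in shNFKBIZ cells, and reads of the 2 genes cannot be told apart without strand where they overlap.

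Of the proteases that shed or trim chemokines, 3 matrix metalloproteinases rose in shNFKBIZ cells. Of 11 genes on that list 9 were tested, of which 3 rose past the threshold and none fell, with a median log2 fold change of 0.40 against 0.00431 over all genes tested, of which 3.84% were past the threshold and higher. The 3 were MMP3, or stromelysin (3.91 ± 0.436 to 86.7 ± 4.47 TPM, log2 fold change 4.39), the gelatinase MMP9 (10.7 ± 1.85 to 62.9 ± 6.84 TPM, 2.48) and the collagenase MMP1 (10.6 ± 0.788 to 26.1 ± 0.761 TPM, 1.22). The membrane-type protease MMP14, at 271 ± 19.1 and 555 ± 36.0 TPM, lay just under the limit with a log2 fold change of 0.95, and was past it when libraries were scaled by size alone (1.04). Gelatinase MMP2, which trims CCL7, had a log2 fold change of 0.40, and cathepsin B (CTSB) one of -0.03. ADAM10 and ADAM17, the sheddases of CXCL16 and CX3CL1, were at 44.7 ± 1.14 and 30.5 ± 0.682 TPM in shCtrl and at 24.6 ± 0.696 and 25.6 ± 0.152 TPM in shNFKBIZ cells, with log2 fold changes of -0.94 and -0.33. Neither was past the threshold, though ADAM10 lay just under the limit on the lower side, and at -0.85 with library size alone. At an adjusted P of at most 0.05 with no limit on the fold, 3 of the 9 proteases were lower and 5 higher. DPP4, which trims the N-terminus of the CXCR3 ligands and CCL5, was at 0.0230 and 0.00394 TPM and was not tested.

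The other chemokines of the genome were compared with the 10. Of 36 on that list 35 were found, of which 5 were tested, and all 5 fell past the threshold, as did 5.12% of all genes tested. Their median log2 fold change was -2.12. They were CCL20, which attracts CCR6-bearing lymphocytes (366 to 75.3 TPM, -2.36), and the neutrophil attractants CXCL8 (663 to 140.1 TPM, -2.32), CXCL3 (31.8 to 7.71 TPM, -2.12), CXCL1 (659 to 187 TPM, -1.89) and CXCL2 (139.8 to 63.1 TPM, -1.23). Of the rest, 21 had 0 reads in every library, and 28 of the 35 had at most 4 reads in every library. CCL3, a CCR1 ligand that attracts monocytes like CCL5, had 4, 6 and 11 reads in shCtrl and 3 in each shNFKBIZ library and was not tested. Thus CCL28 was the tested chemokine with a positive log2 fold change, and CCL5 and the 5 others had negative ones.

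On the interferon route to CXCL9, CXCL10 and CXCL11, the cytokine genes IFNB1, IFNG and IFNL1 had 0 reads in every library. Of 22 genes 19 were tested, of which 3 fell past the threshold and none rose, with a median log2 fold change of -0.27, beside 5.12% lower and 3.84% higher among all genes tested. The 3 were IRF7, a factor of interferon induction (16.9 ± 1.33 to 6.65 ± 0.409 TPM, -1.42), the DNA-sensing adaptor STING1 (27.4 ± 0.651 to 10.9 ± 0.995 TPM, -1.42) and IRF2 (11.5 ± 0.412 to 6.03 ± 0.331 TPM, -1.02), which was not past the threshold with library size alone (-0.93). Of the most abundant genes of the list, the interferon-γ receptor subunit IFNGR2 was at 83.7 ± 7.23 and 149.7 ± 1.08 TPM (0.76), IRF3 at 69.3 ± 1.47 and 57.6 ± 4.41 TPM (-0.35) and the adaptor MAVS at 52.3 ± 1.32 and 54.8 ± 0.773 TPM (-0.01). The interferon-induced factor IRF1 was at 2.12 ± 0.372 and 3.07 ± 0.388 TPM (0.46).

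Of the 25 genes of the NF-κB route 24 were tested, of which 6 fell past the threshold and none rose, with a median log2 fold change of -0.24, where 5.12% of all genes tested were lower and 3.84% higher past it. NFKBIZ is 1 of the 6, and its fall was set by the design. The largest changes were those of IL1B (1620 to 55.1 TPM, log2 fold change -4.96) and IL1A (980 to 291 TPM, -1.83), the cytokines that activate the route, of the nuclear IκB protein BCL3 (35.03 to 6.58 TPM, -2.50) and of NFKBIZ, the knockdown target. Of the 5 κB-binding subunits, NFKB2 fell past the threshold (48.0 ± 1.86 to 25.3 ± 0.459 TPM, -1.01), though not with library size alone (-0.92), which leaves 5 of the 6, NFKBIZ among them. The other subunits had log2 fold changes of -0.62 for REL, -0.20 for RELA, -0.17 for NFKB1 and -0.07 for RELB and were not past it. CEBPD, a C/EBP factor, also fell past the threshold (57.4 ± 2.52 to 28.2 ± 1.78 TPM, -1.11). At an adjusted P of at most 0.05 in the edgeR quasi-likelihood test with no fold limit, 14 of the 24 were lower and 3 higher. Of all 13843 genes tested, 4543 were lower and 4496 higher in that way. The higher ones on the list were FOSL1 (0.73), the C/EBP factor CEBPB (187.5 and 243.4 TPM, 0.29) and JUN (0.13). TNF was at 0.422 and 0.0334 TPM and was not tested.

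The EZH2 and HDAC3 complexes, which place or maintain repressive chromatin, were read from the same fit, since the study also examined EZH2 and HDAC3. All 8 genes were tested, of which 1 fell past the threshold and none rose, with a median log2 fold change of 0.02, against 5.12% lower and 3.84% higher over all genes tested. The 1 gene was GPS2, a subunit of the HDAC3 and NCoR complex (65.7 ± 2.83 to 33.8 ± 1.44 TPM, -1.04), and it was not past the threshold with library size alone (-0.95). SUZ12 was at 69.8 ± 2.25 and 76.8 ± 0.812 TPM (0.06), and the enzymes EZH2 and HDAC3 had log2 fold changes of 0.55 and 0.05. With library size alone the log2 fold changes of MAVS, CTSB and RELB, all near 0, turned positive.

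**Figure D4:**
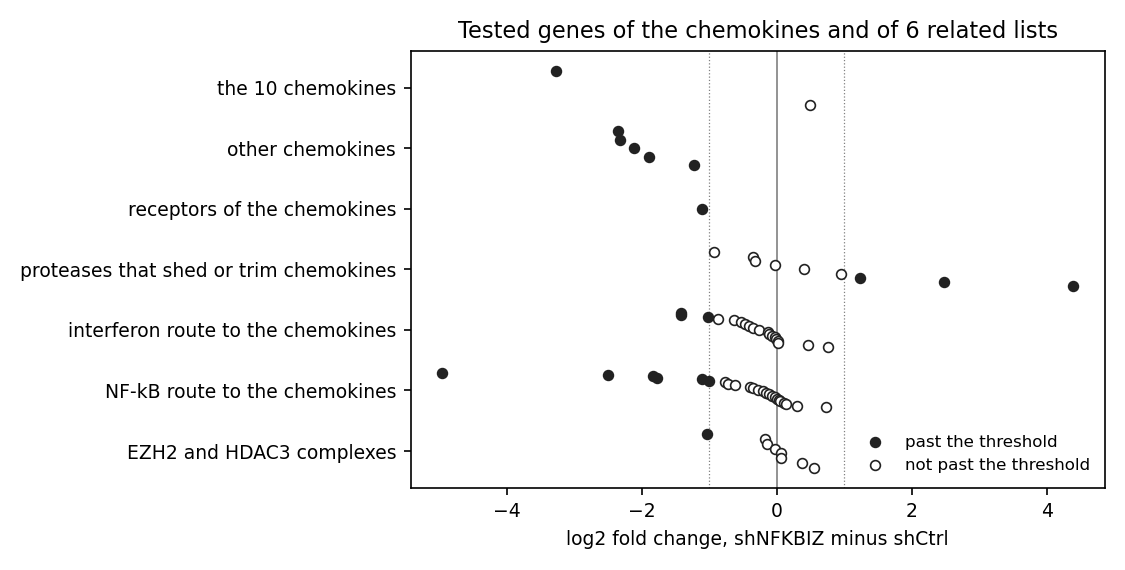
Log2 fold change, shNFKBIZ minus shCtrl, of the tested genes among the 10 chemokines and in 6 related lists. Each point is a gene, filled where it was past the threshold (adjusted P of at most 0.05 and at least 2-fold, dotted lines), and the solid line marks 0. Of the 10 chemokines, CCL5 lies at -3.28 and CCL28 at 0.49, and the 5 other chemokines lie between -2.36 and -1.23.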

How the data were processed

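RNA was sequenced as paired reads in 6 libraries of LOX-IMVI cells, whose titles gave the group and replicate number. The authors mapped reads to hg38 with Ensembl 109 in CLC Genomics Workbench 24.0 under its defaults (up to 10 hits per read, strand not used), and deposited whole-number counts per gene for exon, intron, unique and total reads. TPM was computed anew from those exon counts, since the deposited TPM used a decimal comma. The study describes the 3 libraries of a group as independent experiments, and P values measure the spread between them. Every pair of replicates differed beyond sampling noise, with a chi-square of 1.71 to 4.45 per degree of freedom, and same-numbered libraries were not paired.

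Total exon reads were filtered with filterByExpr, which left 13843 genes, scaled by TMM and compared with the two-sided quasi-likelihood test of edgeR 4.0.16 in R 4.3.3 with Benjamini-Hochberg adjustment over all genes tested. Past the threshold means a fold change of at least 2 with an adjusted P no higher than 0.05. The SE is the log2 fold change divided by the square root of F. The script was tested on simulated data. Summed reads were compared as rates per total exon reads with exact conditional binomial (Clopper-Pearson) 95% intervals from SciPy 1.17.1, and the floor was 3 reads summed over a group. No ratio is given where both groups were at or under the floor. Intervals and floors cover counting error only.

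The 10 chemokines, the 6 related lists and the markers were chosen with earlier results of these data known. Genes named are NFKBIZ, the chemokines, the list genes past the threshold (at most 4 in each direction), up to 3 of the most abundant tested genes of the receptor, protease, interferon and chromatin lists, and the 3 genes most like CCL28. Named outside this rule, after their values were seen, are the receptors and other chemokines at 0, CCL3, ADAM10, ADAM17, DPP4, IFNB1, IFNG, IFNL1, IRF1, NFKB2, CEBPD, CEBPB, FOSL1, JUN, REL, RELA, NFKB1, RELB, TNF, EZH2, HDAC3, the markers and the overlapping and neighbouring genes. CXCL2 was the smallest of 5 changes and is named for completeness. Some genes that this rule names are not reported here. Of the lists, CCL3L3 was not found in the tables. Alternatives tried were DESeq2 1.42.0, the likelihood ratio test, a replicate block, RLE factors or library size alone, other filters and thresholds, unique reads or total gene reads, each library left out in turn, and the table without its 10 most abundant genes.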

Additional observations from a re-analysis of the deposited data

How the results depend on the processing

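CCL28 kept its direction and an adjusted P under 0.05 under all 16 alternatives that gave it a value, with log2 fold changes of 0.40 to 0.58 (adjusted P 4.78e-06 to 0.00436). CCL5 stayed past the threshold under all 15 alternatives of tool, scaling, filter, reads and library that gave it a value, with log2 fold changes of -3.67 to -2.98 (adjusted P 5.17e-10 to 0.000108). Apart from the fit with no filter, CCL5 entered these fits only through its shCtrl libraries, where it was high. They reuse the same reads and are not separate support. NFKBIZ ranged from -1.83 to -1.66. The chemokines past the threshold numbered 1, CCL5, with the settings of the report. They numbered 0 where 10 reads were required in every library, because CCL5 was then not tested, 2 with no fold limit (CCL5 and CCL28), and 0 where a difference in mean TPM above 4 was required as well. Over all genes, 1241 were past the threshold, 9039 with no fold limit and 555 with the difference in TPM. The number was 1315 to 1361 with each library left out in turn, and CCL5 was the 1 chemokine each time. With the replicate block 1244 genes and CCL5 were past the threshold, but the numbers did not pair the libraries, since deviations from the group means correlated by only 0.0254, 0.0828 and 0.0161 for the 3 numbers. With library size alone the median log2 fold change of all genes was 0.0937, and 53.4% of the 1252 genes past the threshold were higher, against 42.9% in the report. The ratios of CXCL11 and CXCL14 became 0 without shNFKBIZ replicate 1, which holds the only knockdown read of each. Ratios ranged from 0.0774 to 0.130 for CCL5, 0.197 to 0.395 for CXCL10 and 1.72 to 2.65 for CXCL16. Without shNFKBIZ replicate 2, which holds 4 of its 5 knockdown reads, CXCL16 had 3 reads in shCtrl and 1 in shNFKBIZ, both at or under the floor, so that its higher ratio rests on that library. At this depth, changes in the 8 scarcer chemokines could not be measured.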

Other observations

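Genes within 100 kb of the chemokines gave values of their own. Next to CCL28, HMGCS1, an enzyme of cholesterol synthesis, fell from 51.4 ± 2.57 to 23.6 ± 0.495 TPM (SD, n = 3; log2 fold change -1.20, adjusted P 1.5e-15, edgeR quasi-likelihood test), while TMEM267 was at 17.7 ± 0.287 and 30.1 ± 0.281 TPM (0.69) and C5orf34 at 9.94 ± 0.780 and 12.8 ± 0.643 TPM (0.29), neither of them past the threshold. Around CXCL9, CXCL10 and CXCL11, the genes SDAD1 (50.6 and 62.4 TPM, log2 fold change 0.22), NAAA (10.2 and 12.8 TPM, 0.25) and NUP54 (13.5 and 9.14 TPM, -0.64) were tested and none was past the threshold. Near CCL5, TAF15 was at 106 and 141 TPM (0.34). The neighbours of CCL2 and CCL7, namely ASIC2, CCL11, CCL8 and CCL13, had 0 reads in all 6 libraries, as did CCL17 and CCL22 beside CX3CL1. Other genes near CX3CL1 were expressed, namely CIAPIN1 (62.9 and 80.5 TPM, log2 fold change 0.28), POLR2C (61.8 and 80.3 TPM, 0.30), COQ9 (20.9 and 32.5 TPM, 0.55) and DOK4 (4.71 and 4.80 TPM, -0.06). None of these was past the threshold. The neighbours of CXCL16 and CXCL14 are not reported here. These neighbours were chosen by position, after values had been seen.

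The 3 genes whose log2 CPM moved most like that of CCL28 over the 6 libraries, by Euclidean distance of deviations from each gene's own mean, were MFSD2A (distance 0.114), KLHL20 (0.125) and FRS2 (0.128), against a median of 0.786 over the genes tested. Like CCL28, all 3 were lowest in the second library of both groups by exon reads (KLHL20 had 430, 388 and 459 reads in shCtrl and 639, 592 and 603 in shNFKBIZ libraries). Because the 3 genes were chosen for likeness over these same libraries, the shared pattern is not a result of its own.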
